A study of Mus musculus with 12 samples.

Results

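Fatty acid oxidation was followed in mouse liver through 36 genes for the activation, transport and breakdown of fatty acids in mitochondria and peroxisomes. The members were picked by gene symbol from the 16239 named genes of the deposited tables, and 20 act in mitochondria, 9 in peroxisomes and 7 before, across or beside these organelles. All 36 passed the filter on low counts and were among the 12587 genes tested. The 12 libraries came from whole livers of mice of strain 129/B6, aged 10 months after 8 months on the HF or the LF diet, with 3 libraries in each of the groups HF knockout, HF floxed, LF knockout and LF floxed. The gene for the matrix protein thrombospondin 1 (TSP1) was floxed in all of them, and the knockout mice were made to lack it in macrophages. By this design the other liver cells of the knockout mice would keep the gene, which was not tested. The labels call the floxed mice wild type. They do not name the promoter that drives the Cre recombinase, so whether other cells also lost the gene is not known here. The study asked what TSP1 made by macrophages does in the fatty liver disease of obesity.

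Fatty acids are joined to coenzyme A by acyl-CoA synthetases before they can be burned. Long chains then enter mitochondria on carnitine and are shortened in a cycle of dehydrogenation, hydration, further dehydrogenation and thiolysis, and the liver turns much of the acetyl-CoA into ketone bodies. Peroxisomes shorten very long and branched chains with enzymes of their own, and the nuclear receptor PPAR alpha, which fatty acids activate, switches on many genes of both pathways in liver.

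The genotype check did not separate the groups as labelled. Thbs1 (gene 21825), the gene for TSP1, was at 0.16, 1.42 and 1.63 FPKM (fragments scaled to gene length and to library size) in HF knockout livers, against 0.75, 0.75 and 0.31 FPKM in HF floxed livers. On LF it was at 0.08, 0.55 and 0.55 FPKM in knockout livers, against 0.11, 0.06 and 0.07 FPKM in floxed livers. HF knockout replicate 1 lay below all HF floxed livers and the other HF knockout livers above them, and the fitted log2 difference of knockout over floxed livers was 0.95 on HF (SE 0.73, edgeR adjusted p = 0.78) and 2.19 on LF (SE 0.84, edgeR adjusted p = 0.929). In whole liver this does not check the deletion in macrophages, and genotypes are those of the labels throughout. Libraries held 16131506 to 16536016 estimated counts. The labels give replicate numbers and no animals, so that p-values reflect only how much these libraries vary, part of which may be technical. Over all genes, LF knockout replicates 2 and 3 differed by 2.36 times the sampling noise and HF floxed replicates 1 and 2 by 4.7 times, against 9.11 to 47.3 times for the other pairs within groups. All were kept as separate libraries, and p-values would be too small if a close pair came from 1 animal.

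HF knockout replicate 2 stood apart in these genes. It was the lowest of the 12 libraries for 28 of 36 members in CPM scaled by TMM, against 24.1% of all tested genes, and the highest for 5 members. Its members had a median of 1.06 log2 units below their means over the 12 libraries, while the 11 other libraries had medians of -0.13 to 0.22 log2 units. Its summed FPKM of 8 hepatocyte markers was the highest of all, 104000 against 42300 and 52600 in the other HF knockout livers, 38800 to 40400 in HF floxed, 46200 to 62000 in LF knockout and 50100 to 69000 in LF floxed livers. Counts and medians of the members and values of most members are therefore also given without this library. Whole liver was sequenced, so fewer cells of a type and less RNA per cell cannot be told apart.

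**Figure D1:**
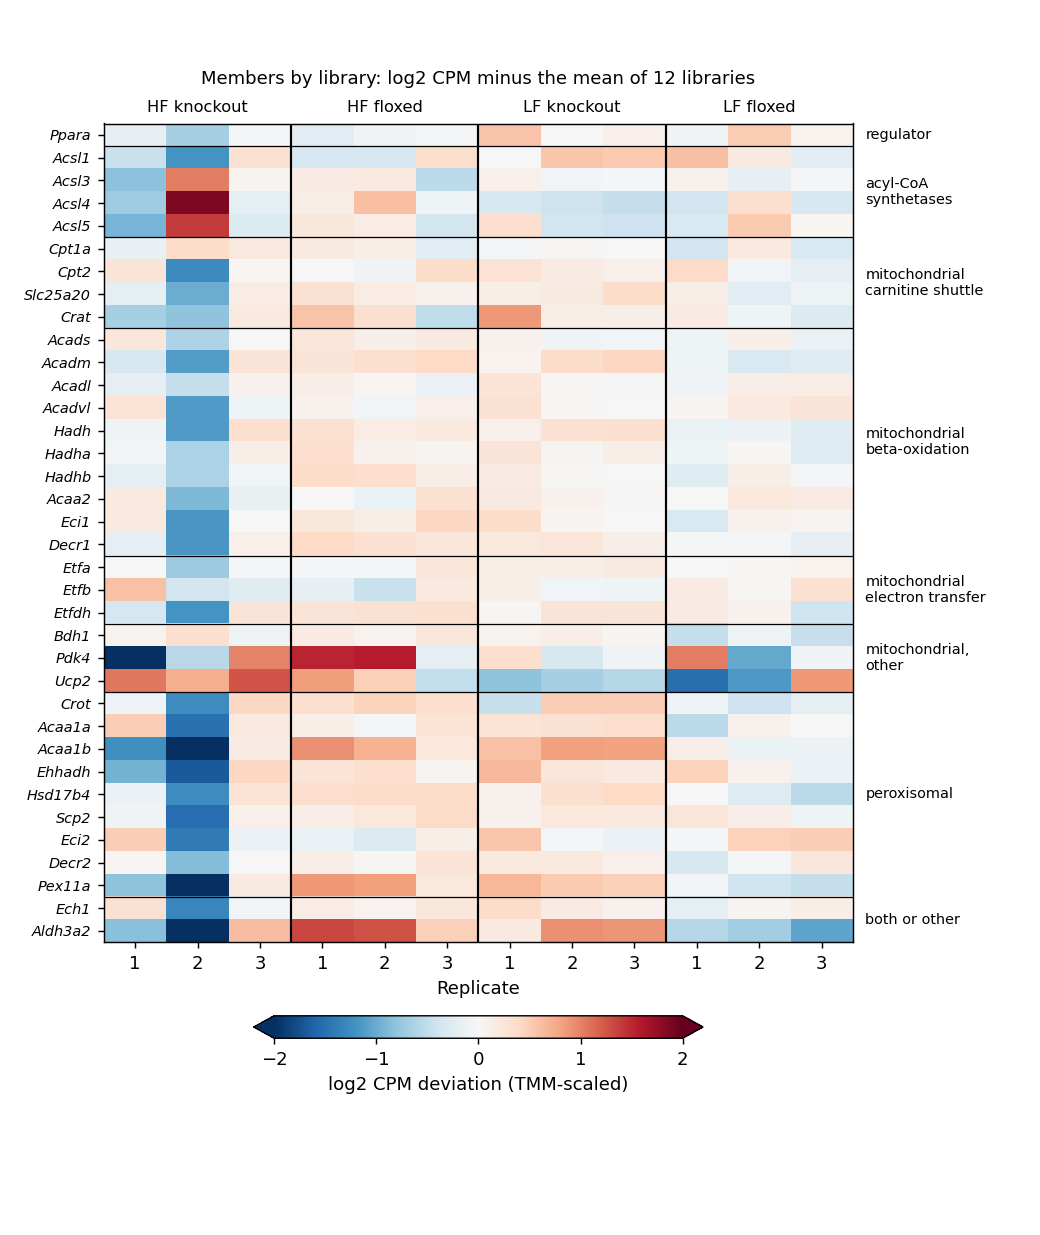
Each cell is the log2 CPM (TMM-scaled) of a member (rows, by role) in a library (columns, replicates 1 to 3 of each group) minus the gene's mean over the 12 libraries; colours saturate at -2 and 2. HF knockout replicate 2 is blue for most mitochondrial and peroxisomal members and red for Acsl3, Acsl4 and Acsl5, while the HF floxed and LF knockout columns are mostly pale red.

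In knockout livers the members tended to be lower on HF than on LF, and in floxed livers they tended to be higher. The median log2 change of HF over LF was -0.37 over the 36 members in knockout livers (29 lower, 7 higher), beside 0.03 over all tested genes, of which 47.1% were lower. In floxed livers it was 0.24 (28 higher, 8 lower), beside 0.00 over all genes, of which 49.9% were higher. The difference between the 2 diet effects, knockout minus floxed, had a median of -0.56 on the log2 scale (30 members below 0), beside 0.05 over all genes, of which 46% were below 0. No member passed a false discovery rate of 5% in either diet comparison or in the difference with edgeR's quasi-likelihood test and Benjamini-Hochberg adjustment over 12587 genes (background 0% of all genes for each diet effect and 0.0159% for the difference).

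Unadjusted, 7 members had p under 0.05 for the difference, all below 0 (19.4%, background 4.34%; background above 0 5.21%): Pex11a, Aldh3a2, Acaa1b, Acadm, Hadhb, Decr1 and Hsd17b4. In knockout livers 3 were lower on HF at that level (8.33%, background 3.38%), Pex11a, Acaa1b and Crat, and 2 were higher (5.56%, background 8.81%), Ucp2 and Acsl4. In floxed livers 3 were higher (8.33%, background 6.85%), Aldh3a2, Bdh1 and Pex11a, and none was lower (background 5.32%). These counts moved with single libraries. For the difference the count below 0 was 4 without HF floxed replicate 1 or LF floxed replicate 3, 15 without HF knockout replicate 3 and 2 with the close pairs averaged. For the members lower in knockout livers it was 13 without HF knockout replicate 3, 5 without HF knockout replicate 1 and 2 to 4 without any other single library. The count higher there was 3 without HF knockout replicate 1, 2 without HF knockout replicate 3 and 1 without any other single library. For the members higher in floxed livers it was 8 without HF knockout replicate 2, through the spread that all groups share, and 1 without HF floxed replicate 1 or with the close pairs averaged.

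DESeq2 on the same counts called 2 members for the difference, Pex11a (log2 -2.17, adjusted p = 0.0341) and Aldh3a2 (log2 -2.94, adjusted p = 0.0286), among 0.855% of all genes. It called Aldh3a2 in floxed livers (adjusted p = 0.0452, background 2.1%). So did edgeR fitted to the floxed groups alone (adjusted p = 0.0403), which called 82 of 12077 genes. DESeq2 called no member in knockout livers (background 1.13%). Leaving out HF knockout replicate 2 brought the median in knockout livers to -0.15 (29 lower, 7 higher) and that of the difference to -0.36 (32 below 0), with no member called by edgeR.

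**Figure D2:**
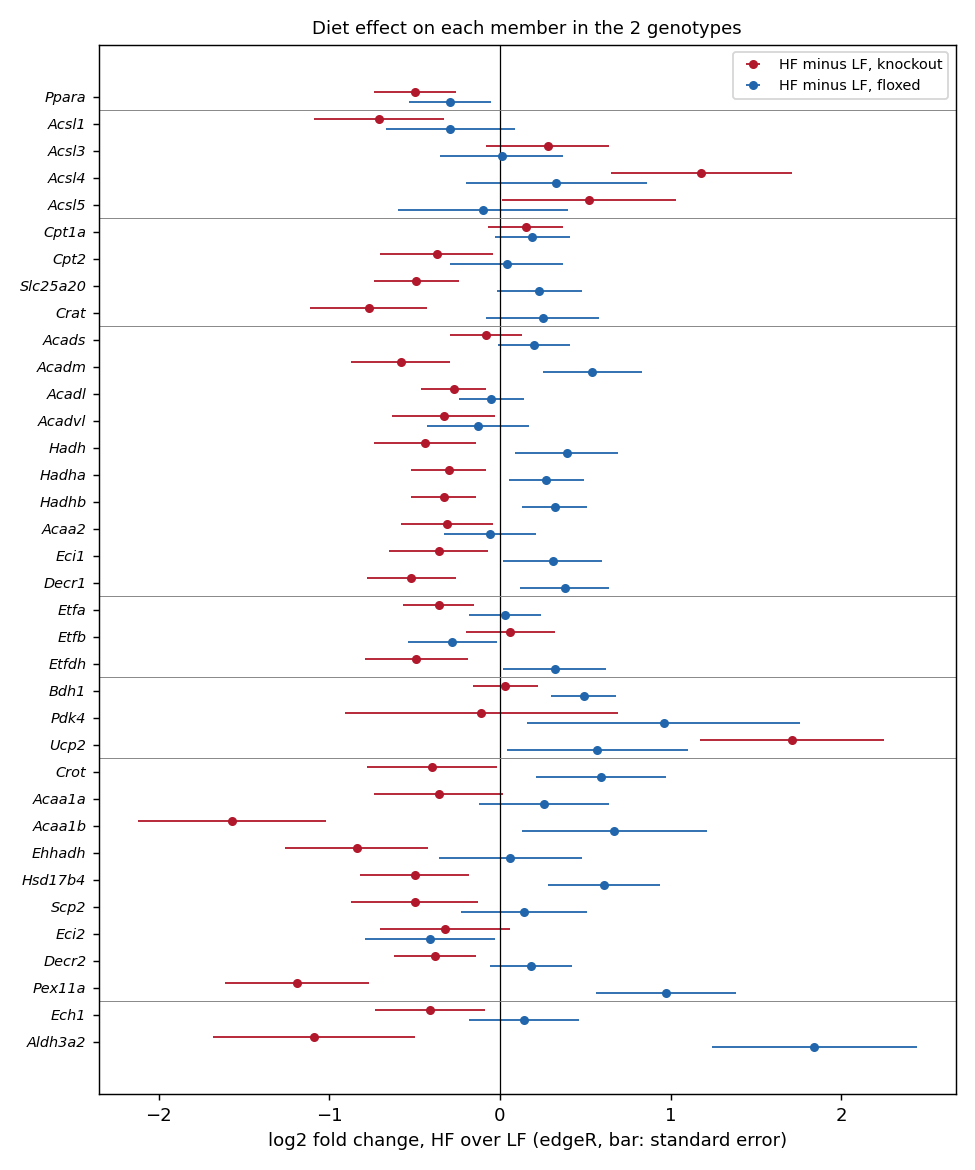
Points are edgeR log2 fold changes of HF over LF for each member, in knockout livers (red) and floxed livers (blue), with standard errors as bars and members grouped by role from Ppara to Aldh3a2. Red points lie left of 0 for all 10 mitochondrial beta-oxidation enzymes and all 9 peroxisomal members, and blue points lie right of 0 for 7 and 8 of them.

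The differences furthest from 0 were those of Aldh3a2, Acaa1b and Pex11a. Pex11a (gene 18631), a membrane protein that drives peroxisome division, was at 16.9, 10.3 and 49.8 FPKM in HF knockout livers, against 59.0, 60.3 and 55.6 FPKM in LF knockout livers. In HF floxed livers it was at 80.0, 81.5 and 44.7 FPKM, against 32.6, 26.9 and 22.8 FPKM in LF floxed livers. The groups did not overlap in either genotype, below in knockout and above in floxed livers, and HF knockout replicate 3 was the nearest to its LF group. The log2 change on HF was -1.19 in knockout (SE 0.42, edgeR adjusted p = 0.345) and 0.97 in floxed livers (SE 0.41, edgeR adjusted p = 0.388). The difference of -2.16 (SE 0.59, edgeR adjusted p = 0.396) did not pass. It was -1.76 to -2.83 when single libraries were left out, and without HF knockout replicate 2 it was -1.76, with -0.80 in knockout livers.

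Aldh3a2 (gene 11671), the fatty aldehyde dehydrogenase that turns long-chain aldehydes into fatty acids, was at 57.4, 22.5 and 209.9 FPKM in HF knockout livers, against 132.8, 239.9 and 235 FPKM in LF knockout livers. It was at 344, 355 and 160.0 FPKM in HF floxed livers, against 72.2, 69.0 and 54.0 FPKM in LF floxed livers. Floxed livers were separated by diet, whereas HF knockout replicate 3 lay within the LF knockout range. The log2 change was -1.09 in knockout (SE 0.59, edgeR adjusted p = 0.473) and 1.84 in floxed livers (SE 0.60, edgeR adjusted p = 0.301), and the difference was -2.93 (SE 0.84, edgeR adjusted p = 0.396). In the fit without HF knockout replicate 2, the change in knockout livers was -0.62 (SE 0.42) and the difference -2.46 (SE 0.57).

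Acaa1b (gene 235674), one of a pair of peroxisomal thiolases that perform the last step of the cycle, came next after Scp2 in abundance per length, with a median of 681 FPKM over the 12 libraries. It was at 206, 85.3 and 725 FPKM in HF knockout livers, against 839.7, 1069 and 1056 FPKM in LF knockout livers. It was at 1215, 1123 and 636 FPKM in HF floxed livers, against 557, 481 and 489 FPKM in LF floxed livers. Neither pair of groups overlapped. The log2 change was -1.57 in knockout (SE 0.55, edgeR adjusted p = 0.346) and 0.67 in floxed livers (SE 0.54, edgeR adjusted p = 0.633), and the difference was -2.24 (SE 0.77, edgeR adjusted p = 0.442). When HF knockout replicate 2 was left out, the change in knockout livers was -1.11 (SE 0.37) and the difference -1.78 (SE 0.48).

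Its close copy Acaa1a (gene 113868) was at 93.5, 29.9 and 99.1 FPKM in HF knockout livers, against 93.6, 99.8 and 103.5 FPKM in LF knockout livers, and at 96.2, 90.6 and 91.4 FPKM in HF floxed livers, against 46.9, 77.2 and 72.7 FPKM in LF floxed livers. HF knockout replicate 2 was the lowest and the 3 LF floxed livers came next, all of them below all LF knockout and all HF floxed livers. The difference was -0.62 (SE 0.54, edgeR adjusted p = 0.734), and -0.23 (SE 0.27) without HF knockout replicate 2. FPKM of Acaa1b was 2.21, 2.86 and 7.31 times that of Acaa1a in HF knockout livers, against 8.97, 10.7 and 10.2 times in LF knockout livers, and 12.6, 12.4 and 6.96 times in HF floxed livers, against 11.9, 6.23 and 6.73 times in LF floxed livers. The transcripts are 91.0% identical over 1639 aligned bases, so the authors' counting could have split reads between them and both levels are uncertain.

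The promoters of these genes are shown because the 3 genes with the largest differences and the copy of one of them differ so much in level across the groups. Each sequence is the 300 bases around the start site in RefSeq, 5′ to 3′ on the gene's own strand (GRCm38.p6, another build than that of the files). Capitals mark GGGCGG, known as the GC box, the common promoter element CCAAT, and the E box CACGTG, on either strand; the element and its reverse complement overlap once in Acaa1b. They lie at chr7:79743082-79743381 (minus strand) for Pex11a, chr11:61267137-61267436 (minus) for Aldh3a2, chr9:119157044-119157343 (minus) for Acaa1b and chr9:119341044-119341343 (plus) for Acaa1a.
Pex11a: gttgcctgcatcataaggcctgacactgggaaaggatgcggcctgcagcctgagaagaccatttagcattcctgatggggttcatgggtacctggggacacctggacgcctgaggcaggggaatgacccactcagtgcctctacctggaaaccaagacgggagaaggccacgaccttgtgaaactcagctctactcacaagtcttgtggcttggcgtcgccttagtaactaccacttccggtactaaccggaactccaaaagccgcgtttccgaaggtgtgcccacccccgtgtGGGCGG
Aldh3a2: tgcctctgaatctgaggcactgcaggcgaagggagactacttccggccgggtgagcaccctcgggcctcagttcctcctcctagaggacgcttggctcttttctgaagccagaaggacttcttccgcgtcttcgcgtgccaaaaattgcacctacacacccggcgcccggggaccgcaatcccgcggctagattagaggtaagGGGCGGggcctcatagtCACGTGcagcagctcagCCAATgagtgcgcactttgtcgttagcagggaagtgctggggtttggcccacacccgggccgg
Acaa1b: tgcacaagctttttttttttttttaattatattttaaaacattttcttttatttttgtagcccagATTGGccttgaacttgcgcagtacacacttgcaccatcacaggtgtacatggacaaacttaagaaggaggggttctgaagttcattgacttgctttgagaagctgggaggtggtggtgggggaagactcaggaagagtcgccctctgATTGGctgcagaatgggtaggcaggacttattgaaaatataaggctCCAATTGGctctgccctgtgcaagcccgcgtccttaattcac
Acaa1a: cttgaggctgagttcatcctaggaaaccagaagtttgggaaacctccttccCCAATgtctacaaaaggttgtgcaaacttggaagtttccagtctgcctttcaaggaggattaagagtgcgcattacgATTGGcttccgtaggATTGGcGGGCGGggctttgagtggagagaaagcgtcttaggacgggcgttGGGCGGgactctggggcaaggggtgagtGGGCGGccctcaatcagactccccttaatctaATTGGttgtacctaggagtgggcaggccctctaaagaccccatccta
The Acaa1b promoter held CCAAT 4 times and no GC box, while that of Acaa1a held CCAAT 4 times and GGGCGG 3 times. Position by position the 2 promoters were identical at 29.3% of bases. Of the 32 members in the promoter table, 26 held GGGCGG (81.2%, against 67.1% of the 9920 tested genes in the table), 15 held CCAAT (46.9% against 43.0%) and 1, Aldh3a2, held CACGTG (3.12% against 11.8%). PPAR alpha binds 2 copies of AGGTCA with 1 base between them; no member held that repeat in this window (0.0504% of tested genes), nor a looser one of AGGNCA (0.383%), and Cpt1a, Acadm, Acadvl and Scp2 held a single AGGTCA (12.5% against 15.6%). None held TATAAA (9.38% of tested genes). These shares describe letters in the window and not binding.

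All 9 peroxisomal members were lower on HF in knockout livers, with a median log2 change of -0.50, and 8 of 9 were higher on HF in floxed livers, with a median of 0.26. The difference was below 0 for 8, with a median of -0.90. Without HF knockout replicate 2, 7 were lower in knockout livers (median -0.15) and the median difference was -0.54 (8 below 0). Ehhadh, the bifunctional enzyme of straight-chain oxidation in peroxisomes, was at 27.0, 20.2 and 92.0 FPKM in HF knockout livers, against 93.3, 76.0 and 74.4 FPKM in LF knockout livers, and at 83.4, 92.96 and 61.0 FPKM in HF floxed livers, against 74.4, 60.1 and 53.0 FPKM in LF floxed livers. HF knockout replicates 1 and 2 lay below all other libraries and replicate 3 within the range of LF knockout, and the difference was -0.90 (SE 0.59, edgeR adjusted p = 0.647) and -0.54 without HF knockout replicate 2. Hsd17b4, the D-bifunctional enzyme that also serves branched chains, was at 105.5, 59.9 and 184.6 FPKM in HF knockout livers, against 138, 178 and 189 FPKM in LF knockout livers, and at 195, 210.2 and 168 FPKM in HF floxed livers, against 120.1, 104 and 85.6 FPKM in LF floxed livers. Its floxed groups did not overlap, its knockout groups did, and the difference was -1.12 (SE 0.46, edgeR adjusted p = 0.489) and -0.79 without HF knockout replicate 2.

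Of the other peroxisomal members, Scp2, a sterol carrier that shares its gene with a thiolase, was the most abundant member, up to 1587 FPKM (67449 estimated counts) in HF floxed replicate 2 and 419 FPKM in HF knockout replicate 2. Its difference was -0.65 (SE 0.52, edgeR adjusted p = 0.711). Crot, which makes medium-chain acylcarnitines for export from peroxisomes, had -1.0 (SE 0.53, edgeR adjusted p = 0.576), and Decr2, a reductase for unsaturated chains, had -0.56 (SE 0.34). Eci2, an enoyl-CoA isomerase, was the exception of the 9, with a difference of 0.09 (SE 0.54) and a lower level on HF in both genotypes (log2 -0.32 in knockout, -0.41 in floxed livers). In the fit without HF knockout replicate 2, the differences were -0.29 for Scp2, -0.65 for Crot, -0.33 for Decr2 and 0.46 for Eci2, whose change in knockout livers was then 0.05.

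**Figure D3:**
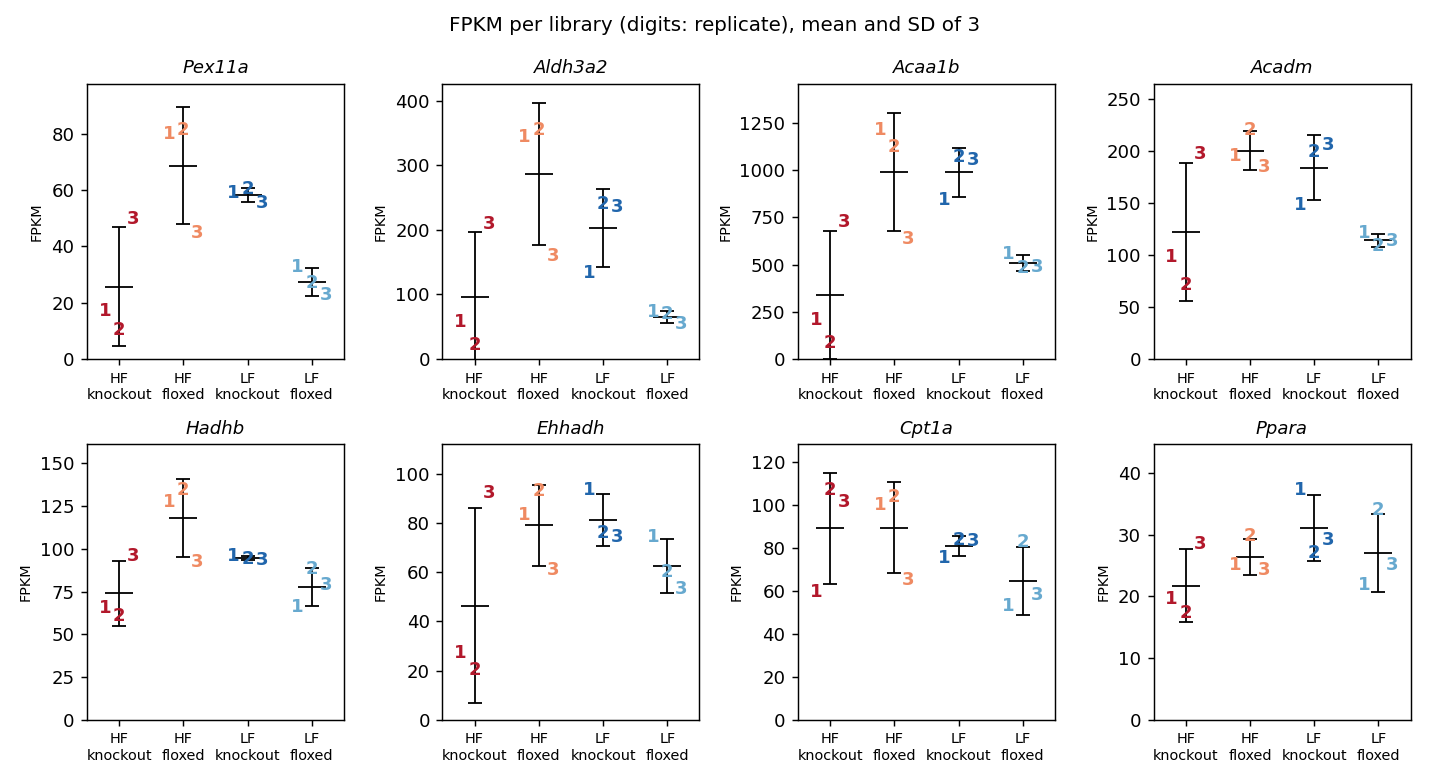
FPKM (linear axis from 0) of 8 members in each library, shown by its replicate number and coloured by group, with the mean and SD of 3 libraries. In the Pex11a, Aldh3a2 and Acaa1b panels HF knockout replicates 1 and 2 lie below replicate 3, and HF floxed replicates 1 and 2 lie above replicate 3.

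Mitochondrial members tended the same way. Of 20, 16 were lower on HF in knockout livers (median log2 -0.33) and 16 were higher in floxed livers (median 0.26), and the difference was below 0 for 18 (median -0.51). When HF knockout replicate 2 was left out, 15 were lower in knockout livers (median -0.10) and the difference was below 0 for 17 (median -0.36). All 10 enzymes of the beta-oxidation cycle were lower on HF in knockout livers, by log2 -0.58 to -0.08, and 7 were higher in floxed livers, with changes of -0.13 to 0.54. Without HF knockout replicate 2, 9 of the 10 were lower in knockout livers (median -0.11). Acadm, the medium-chain acyl-CoA dehydrogenase, was at 98.3, 71.4 and 197.5 FPKM in HF knockout livers, against 148, 199 and 205 FPKM in LF knockout livers, and at 195.6, 221 and 184.5 FPKM in HF floxed livers, against 121, 109 and 113 FPKM in LF floxed livers. Diet separated its floxed groups and not its knockout groups, where HF replicate 3 lay within the LF range, and the difference was -1.12 (SE 0.41, edgeR adjusted p = 0.465) and -0.83 without HF knockout replicate 2.

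Hadha and Hadhb encode the alpha and beta subunits of the mitochondrial trifunctional protein and are next to each other in the genome. Hadhb was at 65.4, 60.9 and 96.0 FPKM in HF knockout livers, against 96.1, 94.1 and 93.7 FPKM in LF knockout livers, and at 127.5, 134 and 92.0 FPKM in HF floxed livers, against 66.3, 88.2 and 78.9 FPKM in LF floxed livers. Hadha was at 72.8, 61.2 and 109.9 FPKM in HF knockout livers, against 103, 97.7 and 103 FPKM in LF knockout livers, and at 127.6, 114 and 88.8 FPKM in HF floxed livers, against 74.2, 84.2 and 68.9 FPKM in LF floxed livers. HF knockout replicate 3 stood with or above the LF knockout livers for both subunits. Their differences were -0.66 for Hadhb (SE 0.27, edgeR adjusted p = 0.488) and -0.56 for Hadha (SE 0.31, edgeR adjusted p = 0.591). Decr1, the mitochondrial reductase for unsaturated chains, had -0.90 (SE 0.36, edgeR adjusted p = 0.484). Hadh, the hydroxyacyl-CoA dehydrogenase of short chains, Eci1, an isomerase, and Acads, the short-chain acyl-CoA dehydrogenase, had differences of -0.82, -0.67 and -0.28. Acadl, Acadvl and Acaa2, for long chains, very long chains and thiolysis, had differences of -0.26 to -0.20. In the fit without HF knockout replicate 2, the differences were -0.51 for Hadhb, -0.37 for Hadha, -0.62 for Decr1, -0.51 for Hadh, -0.36 for Eci1 and -0.07 for Acads, and those of Acadl, Acadvl and Acaa2 lay between -0.09 and 0.11.

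Transport into mitochondria was uneven. Cpt1a, which loads long chains onto carnitine at the outer membrane and is the controlled step, was at 59.5, 106.9 and 101 FPKM in HF knockout livers, against 75.3, 83.6 and 83.5 FPKM in LF knockout livers, and at 100.02, 103.6 and 64.9 FPKM in HF floxed livers, against 52.8, 82.6 and 58.3 FPKM in LF floxed livers. Both HF groups overlapped with their LF group, HF knockout replicate 2 was the highest of the 12 libraries, and the difference was -0.05 (SE 0.32, edgeR adjusted p = 0.975). Crat, the carnitine acetyltransferase, was at 7.12, 8.27 and 17.5 FPKM in HF knockout livers, against 23.8, 15.8 and 15.6 FPKM in LF knockout livers. In floxed livers it was at 22.8, 20.6 and 9.09 FPKM on HF, against 13.4, 11.7 and 10.4 FPKM on LF. Both pairs overlapped, and its log2 change on HF was -0.77 in knockout (SE 0.34, edgeR adjusted p = 0.396) and 0.25 in floxed livers (SE 0.33). Slc25a20, the carnitine-acylcarnitine carrier of the inner membrane, and Cpt2, which releases the chains inside, had differences of -0.73 (SE 0.35) and -0.41 (SE 0.46). When HF knockout replicate 2 was left out, the change of Crat in knockout livers was -0.59, and the differences were -0.16 for Cpt1a, -0.46 for Slc25a20 and -0.07 for Cpt2.

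The electron transfer flavoprotein hands electrons from the acyl-CoA dehydrogenases to the respiratory chain. Its subunit Etfa had a difference of -0.39 (SE 0.29) and its subunit Etfb one of 0.34 (SE 0.37), and Etfdh, which passes the electrons on to ubiquinone, had -0.81 (SE 0.43). None passed the test, and the values were -0.18, 0.51 and -0.51 without HF knockout replicate 2.

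Bdh1, which makes the ketone body beta-hydroxybutyrate, was at 82.9, 125.9 and 99.2 FPKM in HF knockout livers, against 95.9, 108 and 103.5 FPKM in LF knockout livers, and at 119, 119 and 105 FPKM in HF floxed livers, against 60.0, 80.9 and 62.8 FPKM in LF floxed livers. The floxed groups did not overlap (log2 0.49, SE 0.19, edgeR adjusted p = 0.349) and the knockout groups did (log2 0.03, SE 0.19, and -0.10 without HF knockout replicate 2). Pdk4, the kinase that turns off pyruvate dehydrogenase, was the least abundant member, at 0.20, 1.76 and 5.54 FPKM in HF knockout livers, against 3.01, 2.08 and 2.47 FPKM in LF knockout livers, and at 8.09, 8.90 and 2.05 FPKM in HF floxed livers, against 4.47, 1.10 and 2.15 FPKM in LF floxed livers. It overlapped in both genotypes, rested on 11 estimated counts in HF knockout replicate 1 and had a difference of -1.07 (SE 1.13), and -0.88 without HF knockout replicate 2.

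Ucp2, a carrier of the inner membrane of the uncoupling protein family, went the other way in knockout livers. It was at 58.9, 59.4 and 91.2 FPKM in HF knockout livers, against 18.8, 22.4 and 23.97 FPKM in LF knockout livers, with no overlap (log2 1.71, SE 0.54, a 3.26-fold higher level, edgeR adjusted p = 0.344, and log2 1.84 without HF knockout replicate 2). In floxed livers it was at 67.9, 56.4 and 22.8 FPKM on HF, against 10.4, 14.03 and 56.3 FPKM on LF, and LF floxed replicate 3 lay within the HF range (log2 0.57, SE 0.53). Ucp2 was the only member for which all HF knockout livers lay above all LF knockout livers, in FPKM (background 5.59%) and in CPM (background 7.17%).

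Ppara itself, which encodes PPAR alpha, was at 19.5, 17.3 and 28.5 FPKM in HF knockout livers, against 37.2, 27.1 and 29.1 FPKM in LF knockout livers, and at 25.1, 29.8 and 24.3 FPKM in HF floxed livers, against 21.9, 34.0 and 25.1 FPKM in LF floxed livers. Its log2 change on HF was -0.50 in knockout (SE 0.24, edgeR adjusted p = 0.428) and -0.29 in floxed livers (SE 0.24, edgeR adjusted p = 0.633), with a difference of -0.21 (SE 0.33). Without HF knockout replicate 2 its change in knockout livers was -0.33 and the difference -0.04. The groups overlapped in FPKM in both genotypes, and in CPM all HF knockout lay below all LF knockout livers. The acyl-CoA synthetases split: Acsl1, the main form of liver, had a log2 change on HF in knockout livers of -0.71 (SE 0.38), while Acsl3, Acsl4 and Acsl5 had 0.28, 1.18 and 0.52. The 3 positive values rested on HF knockout replicate 2, which held 12.8 FPKM of Acsl3, 29.7 of Acsl4 and 394 of Acsl5, against at most 6.87, 7.51 and 131 FPKM in the other HF knockout livers and 6.09, 6.02 and 172 FPKM in LF knockout livers. Without it all 4 synthetases were lower on HF in knockout livers (median -0.36), with -0.41 for Acsl1. In FPKM, Acsl1 was 0.245 times Acsl5 in that library and 1.01 to 2.86 times in the other 11. Ech1, a dienoyl-CoA isomerase found in both organelles, had a difference of -0.56 (SE 0.46), and -0.22 without HF knockout replicate 2.

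The genotypes were also compared within each diet, with the same libraries, so these values restate the 4 groups from another side. On HF, knockout livers tended to be lower than floxed livers: 30 of 36 members were lower (46.6% of all genes), with a median log2 difference of -0.34 beside 0.03 over all genes, and 17 of 20 mitochondrial (median -0.31) and all 9 peroxisomal members (median -0.58) were lower. None passed with edgeR (background 0%). At an unadjusted p under 0.05, none was higher (background 4.59%) and 5 were lower (13.9%, background 3.06%): Pex11a (log2 -1.29, SE 0.42, edgeR adjusted p = 0.598), Hadhb (-0.55, SE 0.19), Acaa1b (-1.47, SE 0.55), Aldh3a2 (-1.48, SE 0.59) and Decr1 (-0.64, SE 0.26). That count was 14 without HF knockout replicate 3, 2 without HF floxed replicate 1, 3 without HF floxed replicate 2 and 1 with the close pairs averaged. In the fit without HF knockout replicate 2, the median was -0.17 (28 lower), 16 of 20 mitochondrial (median -0.11) and 7 of 9 peroxisomal members (median -0.22) were lower, and the values of the 5 genes, in the order above, were -0.90, -0.40, -1.01, -1.01 and -0.35.

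On LF the direction was the opposite. Of 36 members, 28 were higher in LF knockout than in LF floxed livers (47.4% of all genes), with a median log2 difference of 0.17 beside -0.02 over all genes, of 0.13 over the mitochondrial and of 0.44 over the peroxisomal members. None passed with edgeR (background 0.0159%), none was lower at an unadjusted p under 0.05 (background 2.55%) and 2 were higher (5.56%, background 2.58%), Aldh3a2 (log2 1.45, SE 0.59, edgeR adjusted p = 0.929) and Bdh1 (0.42, SE 0.19, edgeR adjusted p = 0.929). This count was 8 without HF knockout replicate 2 and 3 without HF knockout replicate 3, through the shared spread. It was 1 without any 1 of the 3 HF floxed livers, LF floxed replicate 2 or LF knockout replicate 1, and 0 without LF floxed replicate 1 or 3, without LF knockout replicate 2 or 3, or with the close pairs averaged. Pex11a (0.86, SE 0.41) and Acadm (0.50, SE 0.29) followed, and for both all LF knockout livers lay above all LF floxed livers.

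Whether groups overlapped depended on the scale, since the median of all genes in FPKM (limma on log2(FPKM + 1)) was itself shifted by 0.20 between diets in floxed, by -0.04 in knockout livers, by -0.11 between genotypes on HF, by 0.12 on LF and by -0.23 for the difference. In FPKM, 21 members had all HF floxed above all LF floxed livers (background 23.6%) and in CPM 13 did (background 11.5%). For LF knockout above LF floxed livers the counts were 21 in FPKM (background 16%) and 11 in CPM (background 6.53%). No member lay wholly on the other side in these comparisons (background 3.3% and 2.18% in FPKM, 12.5% and 6.9% in CPM). HF knockout lay wholly below LF knockout livers for 5 members in FPKM (background 5.98%) and 7 in CPM (background 6.75%), and wholly below HF floxed livers for 5 in FPKM (background 7.08%) and 6 in CPM (background 5.35%); none lay wholly above HF floxed livers (background 2.25% in FPKM, 4.75% in CPM). Acaa1b and Pex11a were the members that were separated upward by HF in floxed and downward in knockout livers on both scales. Acaa2 and Ech1 were so in FPKM alone (background 1.2%), and Hadhb and Decr1 in CPM alone (background 0.508%).

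Summed over members, mitochondrial FPKM was 1976, 1458 and 2548 in HF knockout livers, against 2347, 2465 and 2456 in LF knockout livers, and 2719, 2700 and 2393 in HF floxed livers, against 1861, 2056 and 2017 in LF floxed livers. Peroxisomal FPKM was 1644, 766 and 2923 in HF knockout livers, against 2704, 3274 and 3242 in LF knockout livers, and 3456, 3605 and 2765 in HF floxed livers, against 2264, 2169 and 2012 in LF floxed livers. HF knockout replicate 3 was the highest of its group in both sums and replicate 2 the lowest. All members together took 0.988, 0.719 and 1.65% of the counts of named genes in HF knockout livers, 1.84, 1.90 and 1.51% in HF floxed, 1.44, 1.72 and 1.70% in LF knockout and 1.30, 1.29 and 1.19% in LF floxed livers.

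**Figure D4:**
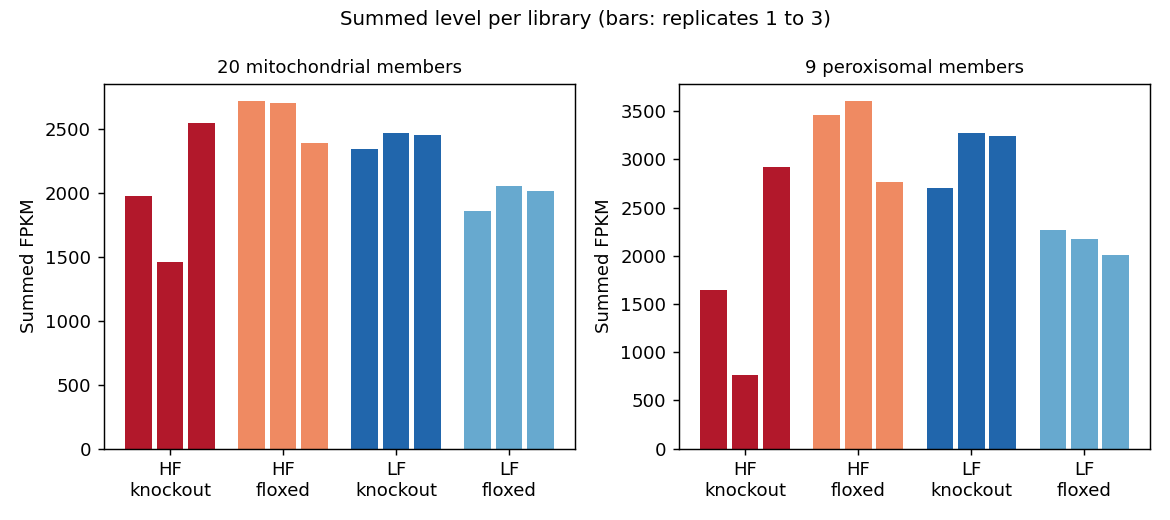
Bars (from 0) are the summed FPKM of the 20 mitochondrial and of the 9 peroxisomal members in each library, replicates 1 to 3 from left to right in each group. HF knockout replicate 2 has the shortest bar in both panels, 1458 and 766, and LF floxed livers lie below HF floxed and LF knockout livers in both.

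Genes of the same pathways outside the 36 were mostly lower on HF in knockout livers, while in floxed livers only the mitochondrial list was mostly higher; the 3 lists were chosen with these data known. Of 20 other genes of mitochondrial oxidation and ketone body synthesis, 19 were lower on HF in knockout livers and 15 were higher in floxed livers, and 17 differences were below 0 (median -0.55). When HF knockout replicate 2 was left out, 14 were lower in knockout livers (median -0.08) and 14 differences were below 0 (median -0.40). Acad9, an acyl-CoA dehydrogenase that also assembles respiratory complex I, had a difference of -0.90 (SE 0.24, edgeR adjusted p = 0.396). Cpt1b, the muscle form of the carnitine transferase, was at 0.19, 0.15 and 0.52 FPKM in HF knockout livers, against 0.49, 0.60 and 0.45 FPKM in LF knockout livers, and at 1.54, 1.25 and 0.58 FPKM in HF floxed livers, against 0.28, 0.28 and 0.47 FPKM in LF floxed livers, with a difference of -2.25 (SE 0.68, edgeR adjusted p = 0.411). Acad10, a further acyl-CoA dehydrogenase, had -0.97 (SE 0.40, edgeR adjusted p = 0.488).

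Of 29 other peroxisomal genes, mostly for building the organelle, 27 were lower on HF in knockout livers (median -0.29), and in floxed livers 11 were higher and 18 lower (median -0.06). Their differences were below 0 for 24 (median -0.27), among them those of Pex19 (-0.63, SE 0.24), an import receptor for membrane proteins, and Lonp2 (-0.96, SE 0.43), a protease. Without HF knockout replicate 2, 21 were lower in knockout livers (median -0.10) and 16 differences were below 0 (median -0.17). Of 22 partners and targets of PPAR alpha, 21 were lower on HF in knockout livers (median -0.42), 12 were higher in floxed livers (median 0.09) and 15 differences were below 0 (median -0.46). In the fit without HF knockout replicate 2, 18 were lower in knockout livers (median -0.20) and 14 differences were below 0 (median -0.23). Vnn1, a pantetheinase, was at 15, 35.97 and 47.5 FPKM in HF knockout livers, against 35.1, 53.9 and 57.4 FPKM in LF knockout livers, and at 70.0, 71.9 and 40.4 FPKM in HF floxed livers, against 2.85, 12.2 and 5.86 FPKM in LF floxed livers. Its difference was -3.44 (SE 0.64, edgeR adjusted p = 0.241). Cd36, a fatty acid translocase, had -4.12 (SE 0.92, edgeR adjusted p = 0.396) and Acot2, a mitochondrial acyl-CoA thioesterase, had -2.32 (SE 0.75, edgeR adjusted p = 0.430). No gene of the 3 lists passed with edgeR in any comparison.

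Markers of other cells varied between the same livers. The summed FPKM of 8 neutrophil markers was 12, 4.47 and 473 in HF knockout livers, 3.88 to 7.68 in HF floxed, 2.89 to 3.85 in LF knockout and 2.07 to 11.7 in LF floxed livers, so HF knockout replicate 3, with member levels near those of the LF knockout livers, was the one rich in these transcripts. Ly6g, a defining marker, was at 0 in all HF floxed and all LF knockout livers. The sum of 6 cholangiocyte markers was 25.8, 755 and 50.3 in HF knockout livers, 35.4 to 109 in HF floxed, 21.8 to 35.0 in LF knockout and 21.8 to 37.4 in LF floxed livers, and the sum of 9 stellate cell markers was 42.8 to 152 in HF knockout, 112 to 216 in HF floxed, 72.9 to 109 in LF knockout and 66.7 to 107 in LF floxed livers. The sum of 11 Kupffer cell and macrophage markers was 86.5 to 330.0 in HF knockout, 108 to 209 in HF floxed, 69.4 to 136 in LF knockout and 64.4 to 201 in LF floxed livers. Adipocyte markers summed to 0.22, 24.9 and 49.2 in HF knockout livers, 94.9, 92.5 and 16.8 in HF floxed, 8.9, 43.8 and 41.1 in LF knockout and 0.53 to 1.74 in LF floxed livers. Nearly all of it was Cidec, a lipid droplet protein also known from fatty liver, and Cfd, while the defining markers Adipoq and Plin1 were at most 0.21 and 0.07 FPKM in any library. The sum of 7 endothelial markers was 20.6 to 73.7 in HF knockout, 44.9 to 60.9 in HF floxed, 51.4 to 53.5 in LF knockout and 28.4 to 47.9 in LF floxed livers, and T and B cell markers summed to 7.36 or less everywhere. By the direction of their log2 changes on HF, 5 of 8 hepatocyte markers were higher in knockout livers (median 0.01) and 1 of 8 in floxed livers (median -0.72). All 9 stellate cell markers were higher on HF in floxed livers (median 1.04), against 5 of 9 in knockout livers (median 0.03). The difference was below 0 for all 9 (median -0.89), as for most members. It was also below 0 for 5 of 7 endothelial (median -0.51) and 2 of 2 adipocyte markers tested (median -5.55). Above 0 were 7 of 8 hepatocyte (median 0.42) and 8 of 11 Kupffer cell and macrophage markers (median 0.57). So were 5 of 5 neutrophil (median 5.64), 3 of 5 cholangiocyte (median 0.23) and 3 of 6 T and B cell markers tested (median 0.62). Of 11 Kupffer cell and macrophage markers, 10 were higher on HF in knockout (median 1.19) and 7 in floxed livers (median 0.61). Of 5 neutrophil markers tested, 5 were higher in knockout (median 5.36) and 1 in floxed livers (median -0.29). A clock score (mean log2 CPM of Dbp, Tef, Nr1d1, Nr1d2, Per2, Per3 and Ciart minus that of Arntl and Npas2) was 2.44, -3.03 and -1.46 in HF knockout livers, -2.13, -1.86 and -0.38 in HF floxed, 4.15, -1.26 and -1.18 in LF knockout and -2.25, 3.63 and 3.32 in LF floxed livers, so libraries of 1 group differed in it. The part of these markers in the members' values was not tested. With the clock score as a covariate in edgeR no member was called. The median was then 0.31 in floxed livers, -0.34 in knockout livers and -0.70 for the difference.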

How the data were processed

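RNA for the 12 libraries came from flash-frozen liver and was sequenced by BGI, per the labels' protocols. The submitters' processing notes name build mm9; the aligner is not given in the sources used here. Per the file headers, the authors deposited expected counts for each gene, without scaling (87.0 to 88.1% whole numbers), and FPKM, which they scaled to effective gene length and fragment number. A gene missing from a file was set to 0 (3825 genes). Loci with no gene name (1229, with 6.65 to 17.33% of all counts) entered neither library sizes nor tests. Named genes held 13336969 to 15080378 estimated counts in a library.

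After rounding, the expected counts were fitted in edgeR 4.0.16 (R 4.3.3), with TMM factors, the filterByExpr filter (12587 genes) and a mean for each of the 4 groups over all 12 libraries. Quasi-likelihood F tests were adjusted by Benjamini-Hochberg over all genes and called at a false discovery rate of 5%, with standard errors from the F statistic. The biological coefficient of variation was 34.8%. The diets were compared within each genotype, the genotypes within each diet, and the 2 diet effects with each other (interaction); these comparisons share libraries. The pipeline was tested on simulated counts with 200 changed genes. For the interaction it recovered 1.7% of 2-fold and 53.5% of 4-fold changes. For the diet and genotype comparisons it recovered 14.5 to 31.8% of 2-fold and 75 to 82.4% of 4-fold changes. A member that did not pass may therefore still have changed by such amounts. Simulated counts started from 1 mean per gene over the 12 libraries, with a spread set by the gene's level. No library was made to stand apart and no pair was made close, so these shares may not hold for the members. Alternatives were DESeq2 1.42.0, edgeR with DESeq2's size factors, limma 3.58.1 on log2 FPKM with a pseudocount of 1 or 0.1 (10533 genes at 1 FPKM or more in 3 libraries), no filter or 10 counts in 3 libraries, a fit of the compared groups alone, a replicate block, each library left out, close pairs averaged, HF floxed replicate 3 and HF knockout replicate 1 (with file names of another form) both left out, unnamed loci kept, and a clock score as covariate. Group overlap in FPKM beside TMM-scaled CPM, and overlap without HF knockout replicate 2, were added after seeing the data.

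Members, gene lists and markers were chosen with earlier results of these data known. Values in every library are given for the 4 members of smallest p in each comparison and for Ppara, Cpt1a, Acadm, Hadha, Ehhadh, Acaa1a, Acaa1b and Pdk4, and of each other list the 3 genes of smallest interaction p are named, except 1 that is not reported here. Promoters came from a RefSeq table (GRCm38.p6, 32 of 36 members matched by symbol), and motifs were searched on both strands.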

Additional observations from a re-analysis of the deposited data

Results flagged for a closer look

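For 4 members in CPM, all 3 HF floxed livers lay above all 3 LF floxed livers. In the same 4, all 3 HF knockout livers lay below all 3 LF knockout livers. Of all genes, 0.508% had both separations in CPM. In FPKM Pex11a and Acaa1b kept them, whereas the knockout groups of Decr1 and Hadhb overlapped. Their gaps in CPM were small. HF knockout replicate 3 had a log2 CPM deviation of -0.05 for Hadhb, against 0.01 in LF knockout replicate 3. For Decr1 these values were 0.10 and 0.12. The difference between the diet effects was -2.16 on the log2 scale for Pex11a, -2.24 for Acaa1b, -0.90 for Decr1 and -0.66 for Hadhb, and none of these differences passed edgeR's test (adjusted p = 0.396, 0.442, 0.484 and 0.488). In FPKM, Decr1 was at 35.0, 22.9 and 57.8 in HF knockout livers, against 53.7, 59.8 and 55.0 in LF knockout livers, and at 71.0, 71.4 and 53.3 in HF floxed livers, against 41.7, 42.8 and 39.3 in LF floxed livers.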

How the results depend on the processing

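No member called under an alternative had the opposite direction in the main fit. DESeq2 called 1 member in floxed livers and 2 for the interaction. On the compared groups alone, edgeR called 1 member in floxed livers, where it called 82 of 12077 genes. Every other alternative called 0 members in all 5 comparisons. With limma on log2(FPKM + 1) and log2(FPKM + 0.1), the median log2 change of members was 0.48 and 0.49 for HF in floxed livers, 0.36 and 0.36 for knockout on LF, and -0.94 and -0.95 for the interaction, where 2 and 2 members were above 0; with 0.1 added, 3 were higher in HF knockout than in HF floxed livers. With the clock score the median was 0.31 for HF in floxed and -0.34 for HF in knockout livers. It was -0.39 for knockout on HF, 0.17 for knockout on LF and -0.70 for the interaction. Leaving out single libraries gave medians of 0.18 to 0.27 for HF in floxed livers, -0.55 to -0.15 for HF in knockout livers, -0.51 to -0.17 for knockout on HF, 0.14 to 0.20 for knockout on LF and -0.74 to -0.36 for the interaction, with 0 members called. Without HF knockout replicate 2, 8 of 36 members changed sign in knockout livers and 10 between genotypes on HF. Deviations of same-numbered libraries from their group means correlated at -0.33 to 0.40. Libraries of unlike number were not compared in this way, so the range cannot tell whether replicate numbers pair libraries. In the fit with replicate numbers as a block, 0 members were called. Medians were 0.24, -0.42, -0.38, 0.18 and -0.60 in the order HF in floxed, HF in knockout, knockout on HF, knockout on LF and interaction. Over all genes edgeR called 0, 0, 0, 2 and 2 genes in that order, with 1532, 1534, 963, 646 and 1202 at an unadjusted p under 0.05, and DESeq2 called 252, 133, 55, 34 and 107. Depth limits Pdk4 most, at 11 estimated counts in HF knockout replicate 1; the next lowest member count was 175.4, of Acsl3 in the same library.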
